A study of Mus musculus with 7 samples.

Results

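The Slit, Robo and netrin guidance genes were examined in the outflow tract (OFT) of mouse embryos at embryonic day 11.5, in control (WT) embryos and in embryos heterozygous for the *Gata6STOP* allele (*Gata6STOP/+*). The members were 10 genes chosen by name: the Slit ligands *Slit2* and *Slit3*, the Robo receptors *Robo1* and *Robo2*, the secreted netrins *Ntn1* and *Ntn4*, and the netrin receptors *Dcc*, *Neo1*, *Unc5b* and *Unc5c*. Of these, 9 were among the 14732 genes of the table used here, a table limited to genes that reached 1 CPM (reads of a gene relative to the size of its library) in 3 or more libraries. *Dcc* was not analysed here. The names were picked with earlier results of these data known, and a gene had to be listed in the table to be measured. The lowest value of a member in any library was 3.58 CPM (*Ntn1*). Close to the limit for listing, *Unc5d*, a relative that is no member, lay between 0.728 and 2.14 CPM.

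Each library came from 1 pool of dissected OFTs, 3 control pools (replicates 3, 4 and 5) and 4 *Gata6STOP/+* pools (replicates 1, 3, 4 and 5). A pool held 4 pairs of OFTs by the design text, which counts 3 pools for each genotype; the labels name 4 for *Gata6STOP/+*, and all 7 pools were used. The allele carries a premature stop codon in *Gata6*, was made by CRISPR-Cas9 in fertilized C57BL/6 eggs, comes from 1 selected founder that was backcrossed to C57BL/6, and is carried by every cell of the embryo, so no tissue was targeted. Whether a pool held embryos of 1 or of several litters is not given in the sources used here, and *P*-values measure the spread between these pools only. Because bulk tissue was sequenced, fewer cells that make a transcript and less transcript per cell cannot be told apart. Pools had 17783655 to 34467710 reads on listed genes. *Gata6* itself, the edited gene, was at 315, 257 and 286 CPM in the control pools and at 268, 203, 219 and 217 CPM in the *Gata6STOP/+* pools, with 1 mutant pool above the lowest control pool (log2 fold change −0.34, limma adjusted *P*=0.389). Of the 17 alternatives 1 called it, the blocked likelihood ratio fit of edgeR, in which replicate numbers are a term (−0.42, adjusted *P*=0.0164). Markers of cardiomyocytes, endothelium, smooth muscle and cushion mesenchyme were listed in full (11, 11, 7 and 12 genes), and 4 of 17 epithelial markers were listed.

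Slits are secreted proteins that bind Robo receptors and mostly repel growing axons and migrating cells. Netrins are laminin-related proteins that attract cells through DCC and its relative neogenin (*Neo1*) and repel them through UNC5 receptors, alone or together with DCC. Both systems were described in axon guidance and also act in vessels and in the heart, where Slit and Robo genes take part in the formation of septa and valves, and UNC5B is a receptor of endothelial cells.

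The members lie on 6 chromosomes. *Robo1* (ENSMUSG00000022883) and *Robo2* (ENSMUSG00000052516) are neighbours on chromosome 16 of GRCm38, from 72308306 to 73046095 on the plus strand and from 73891839 to 74411825 on the minus strand, with 846 kb between them. To check whether reads of 60 bases can be mistaken between relatives, every stretch of 60 bases in the annotated transcripts of each member was looked up in those of all other genes. *Robo2*, *Ntn1*, *Slit3*, *Neo1* and *Unc5b* shared 0 such stretches with any gene outside the members on either strand. No 2 members shared any on the same strand, and the opposite strand was not looked up between members. *Unc5c* shared 0.307% of its stretches with *Gm15688*, a gene on the opposite strand, and the other members less than 0.1%.

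Sequence before the transcription start was taken from RefSeq (GRCm38.p6), which gave 10 windows of 300 bases for 8 of the 9 members. It is shown for *Robo2*, the member with the smallest *P*-value, because RefSeq places 3 starts along 1.04 Mb, of which only the last is the start of the gene in GENCODE M21. No transcript of *Robo2* in that annotation holds the first 50 bases after the other 2 starts. It is also shown for *Unc5b*, the member with the highest level. The 250 bases before each start read as follows, 5′ to 3′ on the strand of the gene, with capitals for matches to the motif that GATA factors bind, searched as AGATAA or as TGATAA, with AGATAG and also TGATAG counted, on both strands.
Robo2, minus strand, chr16:75447294-75447543: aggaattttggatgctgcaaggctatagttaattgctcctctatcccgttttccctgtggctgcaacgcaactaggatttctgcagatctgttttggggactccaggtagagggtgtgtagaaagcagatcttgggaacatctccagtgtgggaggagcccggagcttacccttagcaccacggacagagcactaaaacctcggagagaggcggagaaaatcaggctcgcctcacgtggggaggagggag
Robo2, minus strand, chr16:75092771-75093020: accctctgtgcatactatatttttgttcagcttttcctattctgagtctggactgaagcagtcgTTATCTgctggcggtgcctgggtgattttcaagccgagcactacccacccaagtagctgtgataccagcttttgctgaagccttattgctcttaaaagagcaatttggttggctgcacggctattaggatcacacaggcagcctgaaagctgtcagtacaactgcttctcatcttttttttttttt
Robo2, minus strand, chr16:74411826-74412075: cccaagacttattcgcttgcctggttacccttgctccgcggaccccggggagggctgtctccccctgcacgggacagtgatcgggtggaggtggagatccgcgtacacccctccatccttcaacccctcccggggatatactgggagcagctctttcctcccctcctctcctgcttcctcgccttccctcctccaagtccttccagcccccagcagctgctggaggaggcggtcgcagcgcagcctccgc
Unc5b, minus strand, chr10:60831582-60831831: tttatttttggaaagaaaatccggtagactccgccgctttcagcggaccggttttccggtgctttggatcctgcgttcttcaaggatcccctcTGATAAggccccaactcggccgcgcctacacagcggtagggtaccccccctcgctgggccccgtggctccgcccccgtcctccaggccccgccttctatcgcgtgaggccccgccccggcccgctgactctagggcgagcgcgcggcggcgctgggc
Of the 10 windows of the members, 2 held a match, 1 of them the middle window of *Robo2* and the other that of *Unc5b*. Among all windows of genes listed in the table the share was 18.8%, and among all 32851 windows 29.8%. A match describes the letters only, and the window at the counted start of *Robo2* held 0.

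Genotypes were compared with limma on log2(CPM+0.5), with Benjamini–Hochberg adjustment across the 14732 listed genes. At an adjusted *P*-value under 0.05, 0 of the 9 members were called, where the share of all genes called was 0.0%. At an unadjusted *P*-value under 0.05 there were 4 members, where 8.06% of all genes passed. Every *Gata6STOP/+* pool lay beyond every control pool for 3 members, *Robo2* and *Ntn1* lower and *Ntn4* higher, against 8.47% of all genes (4.16% lower and 4.31% higher). The same 3 members were apart without control replicate 4, against 19.1% of all genes. Because the members were picked with earlier results of these data known, these counts cannot be read as an excess over the shares of all genes. With a constant of 0.1 in place of 0.5, 0 members were called and 0.00679% of all genes. The median log2 fold change of the members was 0.09, with 5 higher and 4 lower in *Gata6STOP/+* pools, against −0.00073 over all genes. The lowest values were those of *Ntn1* and *Robo2* and the highest that of *Unc5c*.

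**Figure D1:**
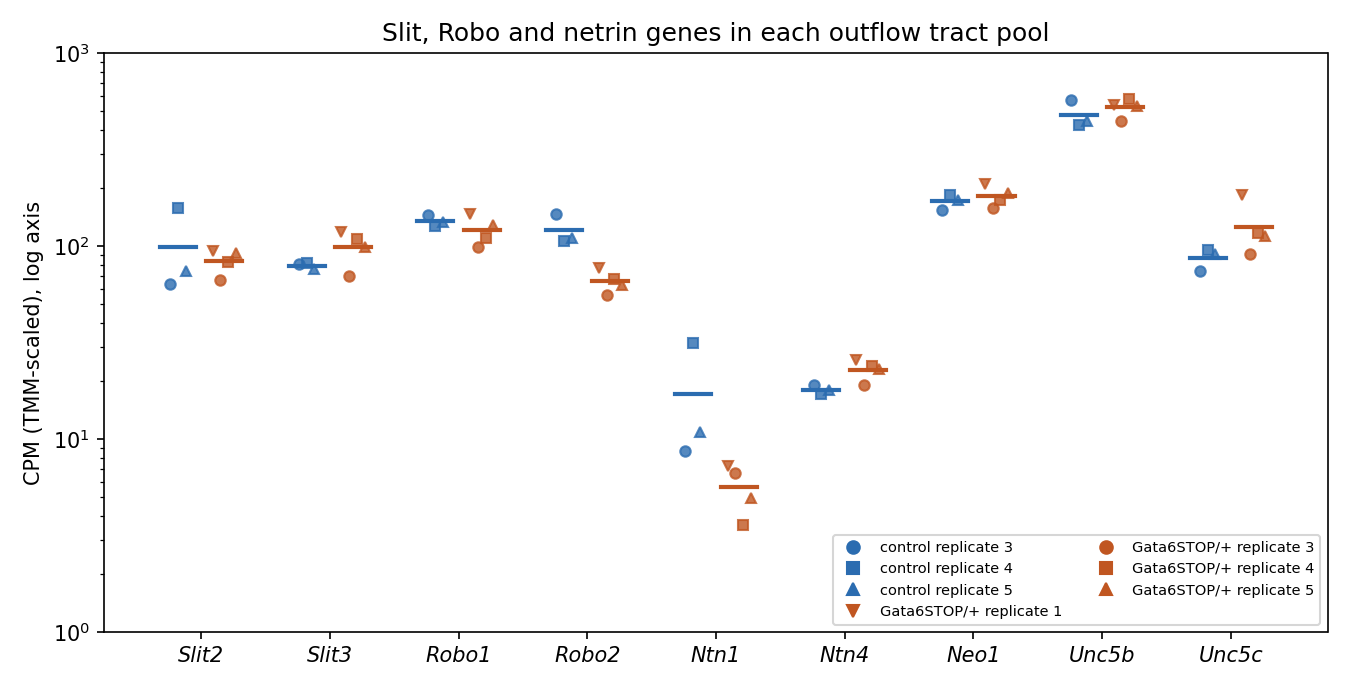
CPM of each member in each pool on a log axis, with control pools in blue, *Gata6STOP/+* pools in orange, a marker shape for each replicate number and a horizontal line at each group mean. The *Gata6STOP/+* pools lie below all control pools for *Robo2* and *Ntn1*, and control replicate 4 stands above the other controls for *Slit2* (157 CPM) and *Ntn1* (31.5 CPM).

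Among the receptors for Slits, *Robo2* was lower and *Robo1* was close to control. In control replicates 3, 4 and 5, *Robo2* stood at 146, 106 and 109 CPM. In *Gata6STOP/+* replicates 1, 3, 4 and 5 the values were 77.2, 55.8, 67.3 and 62.7 CPM. The highest *Gata6STOP/+* pool was therefore well below the lowest control pool. The means were 120.4±21.99 CPM (s.d., *n*=3) and 65.7±9.002 CPM (s.d., *n*=4), so that the *Gata6STOP/+* mean was 54.6% of the control mean. The log2 fold change of −0.86 had a 95% interval from −1.14 to −0.59 and was 3rd of all genes by *P*-value (limma adjusted *P*=0.097). Without control replicate 4 it was −0.95 (limma adjusted *P*=0.0473, with 0.0882% of all genes called), and without any other pool *Robo2* was not called. The call also depended on the tool, and 6 of the 17 alternatives called *Robo2*. On the recovered reads, DESeq2 gave an adjusted *P*-value of 1.4e-07, with 0.597% of all genes called. EdgeR's likelihood ratio test gave an adjusted *P*-value of 1.9e-07, with 0.713% of all genes called. Its quasi-likelihood test did not call *Robo2* without the replicate block (adjusted *P*=0.171). With the replicate number as a block, limma called it (adjusted *P*=0.0388, with 0.095% of all genes called). So did the blocked quasi-likelihood test (adjusted *P*=0.0470, 0.0882% of all genes) and likelihood ratio test (adjusted *P*=3.2e-09, 0.801% of all genes). In the blocked fits *Gata6STOP/+* replicate 1, which has no control of its number, does not count towards the genotype difference.

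*Robo1* was at 145, 127 and 132 CPM in the control pools and at 147, 98.5, 111 and 128 CPM in the *Gata6STOP/+* pools, and the groups overlapped. Its log2 fold change was −0.17 with an interval from −0.43 to 0.09 (limma adjusted *P*=0.765), which leaves room for a moderate decrease but not for one of the size of *Robo2*. Within each pool, *Robo2* made up 50.1, 45.5 and 45.2% of the summed CPM of both genes in control replicates 3, 4 and 5. In *Gata6STOP/+* replicates 1, 3, 4 and 5 the share was 34.4, 36.2, 37.8 and 32.8%. The ranges did not overlap. Because both values of a share come from the same library, it does not change with library scaling. It was not tested, since *Robo2* was picked for its difference. The summed CPM ran from 233 to 291 in control and from 154 to 224 in *Gata6STOP/+* pools.

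**Figure D2:**
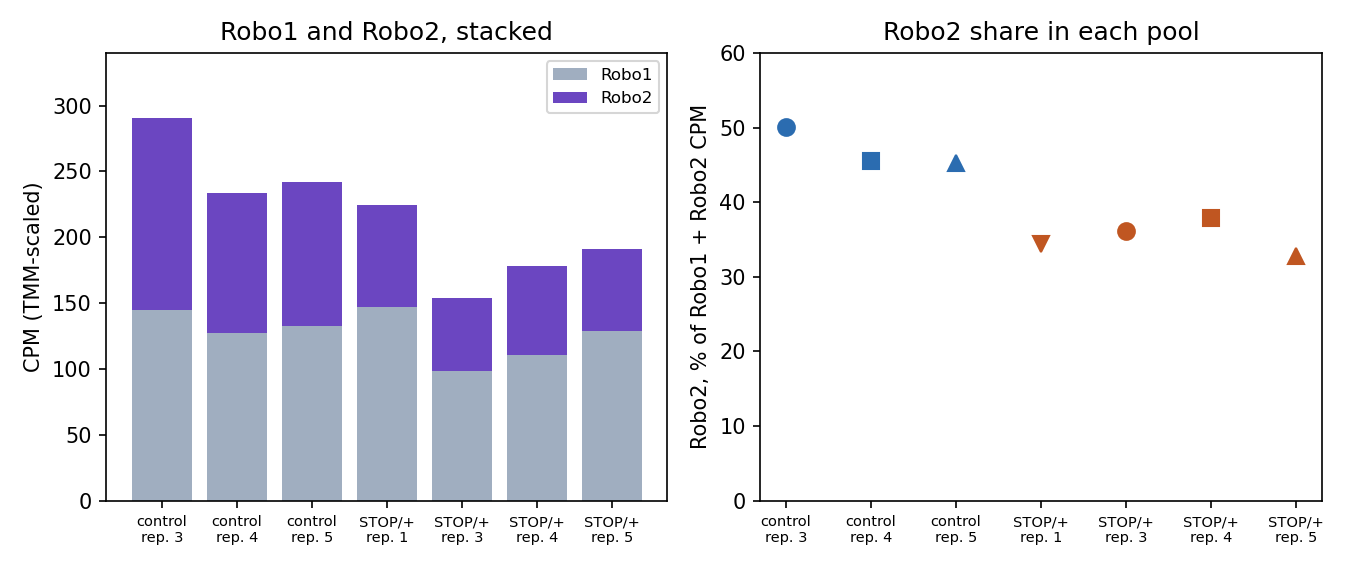
Left, CPM of *Robo1* (grey) and *Robo2* (purple) stacked for each pool; right, *Robo2* as a percentage of the sum in each pool, control in blue and *Gata6STOP/+* in orange. The share of *Robo2* is 45.2 to 50.1% in control pools and 32.8 to 37.8% in *Gata6STOP/+* pools.

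Of the ligands, *Slit2* depended on 1 control pool. *Slit2* (ENSMUSG00000031558, chromosome 5, 47983138 to 48307733) had 63.6, 157 and 74.4 CPM in control replicates 3, 4 and 5. The *Gata6STOP/+* pools had 94.0, 66.4, 82.8 and 91.6 CPM. Control replicate 4 was 2.12 times the next control pool and above every other pool. The log2 fold change of −0.13 had a wide interval, from −0.68 to 0.43 (limma adjusted *P*=0.926), and its direction turned without control replicate 4, to 0.27 (limma adjusted *P*=0.587). In the remaining controls the mean was 69.0 CPM. *Slit3* (ENSMUSG00000056427, chromosome 11, 35121224 to 35708507) was tightly grouped in control pools, at 80.5, 81.2 and 75.7 CPM. In *Gata6STOP/+* pools it was spread on either side, at 119, 70.2, 108 and 98.9 CPM, with replicate 3 below and the other mutant pools above all controls. Its log2 fold change was 0.30 with an interval from −0.02 to 0.61 (limma adjusted *P*=0.648). Neither ligand showed the pattern of *Robo2* over the pools.

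Netrin-1 transcript was lower in *Gata6STOP/+* pools, by an amount that rested on the same control pool. *Ntn1* (ENSMUSG00000020902, chromosome 11, 68209364 to 68400823, minus strand) had 8.68, 31.5 and 10.8 CPM in control replicates 3, 4 and 5, from 181, 914 and 193 reads. In *Gata6STOP/+* replicates 1, 3, 4 and 5 it was at 7.26, 6.63, 3.58 and 4.94 CPM, from 207, 183, 88 and 170 reads. Each *Gata6STOP/+* pool was below each control pool with or without control replicate 4. The log2 fold change was −1.33 with an interval from −2.16 to −0.51 (limma adjusted *P*=0.359) and was −0.78 without control replicate 4 (limma adjusted *P*=0.382). The *Gata6STOP/+* mean was 32.9% of the control mean with all pools and 57.5% of it without that pool. EdgeR's likelihood ratio test on the recovered reads called *Ntn1* (adjusted *P*=0.0150, with 0.713% of all genes called), whereas DESeq2 did not (adjusted *P*=0.219). With the replicate number as a block, the likelihood ratio test called *Unc5c* and *Robo2* among the members and 0.801% of all genes.

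*Ntn4* (ENSMUSG00000020019, chromosome 10, 93640681 to 93747207), a netrin of basement membranes, went the other way. It was at 18.9, 17.1 and 18.0 CPM in control pools and at 25.5, 18.9, 24.0 and 23.1 CPM in *Gata6STOP/+* pools. The groups were apart by a hair, since control replicate 3 was at 18.94 CPM and *Gata6STOP/+* replicate 3 at 18.95 CPM, from 395 and 523 reads. Its log2 fold change was 0.33 with an interval from 0.10 to 0.56 (limma adjusted *P*=0.420). The log2 ratio of *Ntn1* to *Ntn4* CPM within a pool was −1.13, 0.88 and −0.73 in control replicates 3, 4 and 5 and −1.81, −1.51, −2.75 and −2.23 in *Gata6STOP/+* replicates 1, 3, 4 and 5. The groups did not overlap in this ratio. That was fixed beforehand, since *Ntn1* was lower and *Ntn4* higher in every *Gata6STOP/+* pool, so the ratio is a description only.

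Among the netrin receptors, *Neo1* and *Unc5b* overlapped between the groups with small differences in the mean, and the mean of *Unc5c* was higher in *Gata6STOP/+* pools. *Neo1* (ENSMUSG00000032340, chromosome 9, 58874687 to 59036441), the receptor for netrins and repulsive guidance molecules, was at 154, 184 and 174 CPM in control and at 208, 157, 173 and 189 CPM in *Gata6STOP/+* pools. Its log2 fold change of 0.09 had an interval from −0.13 to 0.30 (limma adjusted *P*=0.856). *Unc5b* (ENSMUSG00000020099, chromosome 10, 60762593 to 60831581) was at 569, 422 and 447 CPM in control and at 537, 442, 579 and 530.3 CPM in *Gata6STOP/+* pools. Its log2 fold change was 0.13 with an interval from −0.12 to 0.38 (limma adjusted *P*=0.813). For both genes the groups overlapped.

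*Unc5c* (ENSMUSG00000059921, chromosome 3, 141465216 to 141834924) had 73.9, 95.6 and 90.5 CPM in control replicates 3, 4 and 5. It was at 184, 90.4, 117 and 113 CPM in *Gata6STOP/+* replicates 1, 3, 4 and 5. Replicate 1 was 1.57 times the next mutant pool, and replicate 3 fell inside the control range. The means were 86.7±11.3 CPM (s.d., *n*=3) and 126±40.5 CPM (s.d., *n*=4). The log2 fold change was 0.50 with an interval from 0.08 to 0.92 (limma adjusted *P*=0.534), and 0.30 without *Gata6STOP/+* replicate 1 (limma adjusted *P*=0.549). *Gata6STOP/+* replicate 1 was also the highest of all pools for *Slit3*, *Robo1*, *Ntn4* and *Neo1*. It had the lowest summed level of the cardiomyocyte markers, 18194 CPM against 22715 to 26190 CPM in the other 6 pools, and the part of this in the *Unc5c* value was not tested.

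**Figure D3:**
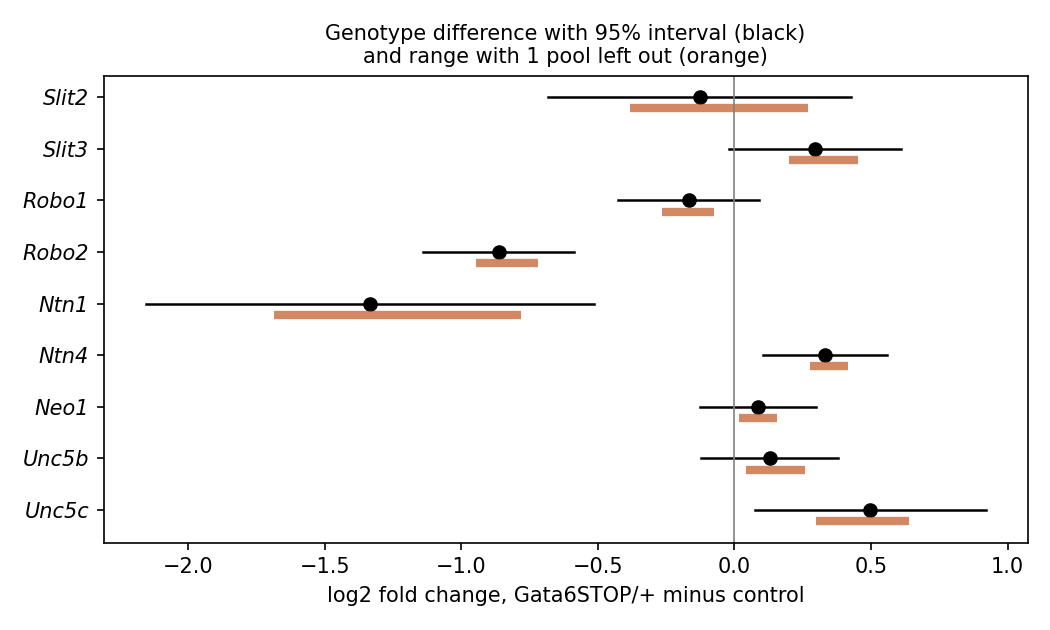
Log2 fold change of each member (*Gata6STOP/+* minus control, black point) with its 95% interval from limma (black line) and the range of the value when 1 pool at a time was left out (orange bar). The bar of *Slit2* crosses 0, from −0.38 to 0.27, and those of *Robo2* and *Ntn1* lie below 0.

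Control replicate 4 stood apart in a small group of genes beside *Ntn1*. Of the 11627 genes whose mean reached 5 CPM, 13 were over 2 times higher in control replicate 4 than in every other pool, a count that was 0 or 1 for each other pool. *Ntn1* is 1 of the 13. The rest include genes of the chamber and trabecular myocardium, chosen for mention after their values were seen. *Nppa*, which encodes atrial natriuretic peptide, was at 174 CPM in control replicate 4 and at 3.26 to 32.1 CPM in the other pools. *Bmp10*, a growth factor of trabecular myocardium, was at 66.5 CPM there and at 0.631 to 11.3 CPM elsewhere. *Nppb*, which encodes brain natriuretic peptide, was at 58.1 CPM there and at 3.999 to 13.3 CPM elsewhere. The part of such tissue in the *Ntn1* and *Slit2* values was not tested. Of the 11 cardiomyocyte markers, 4 were highest in control replicate 4, and their summed level there was 24837 CPM, within the 22715 to 25187 CPM of the control pools. Of the 11 endothelial markers 4 were also highest there, with a summed level of 1102 CPM against 956 and 854 CPM in control replicates 3 and 5. The neural crest list had 2 such genes, the mesothelial list 1 and the other marker lists 0.

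The genes whose pattern over the 7 pools was most like that of a member were found by the root mean square difference of log2(CPM+0.5), each gene centred on its own mean, among genes whose mean reached 5 CPM. For *Robo2* they were *Diras2* (0.157), *Cd200* (0.163) and *Hs3st3a1* (0.168), where *Robo2* itself varied by 0.466 about its mean. Those near *Ntn1* included *Ednrb* (0.197) and *Tgfbr3* (0.409), against 0.882 for *Ntn1* itself. *Ednrb*, the endothelin receptor B gene, was at 81.0 CPM in control replicate 4, at 22.5 and 27.8 CPM in the other controls and at 14.1 to 18.6 CPM in *Gata6STOP/+* pools. For *Slit2* they were *Col23a1* (0.110), *Tm4sf1* (0.141) and *Adgrf5* (0.174), against 0.405. For *Ntn4* they were *Lingo1* (0.056), *Ass1* (0.058) and *Olfml2a* (0.061), against 0.205. *Ednrb*, *Tgfbr3* and the 3 genes nearest to *Slit2* were highest in control replicate 4, and all 3 nearest to *Robo2* were lower in every *Gata6STOP/+* pool than in any control pool. Because these genes were picked for their likeness over the same 7 pools, such shared patterns follow from the choice and are no separate result.

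**Figure D4:**
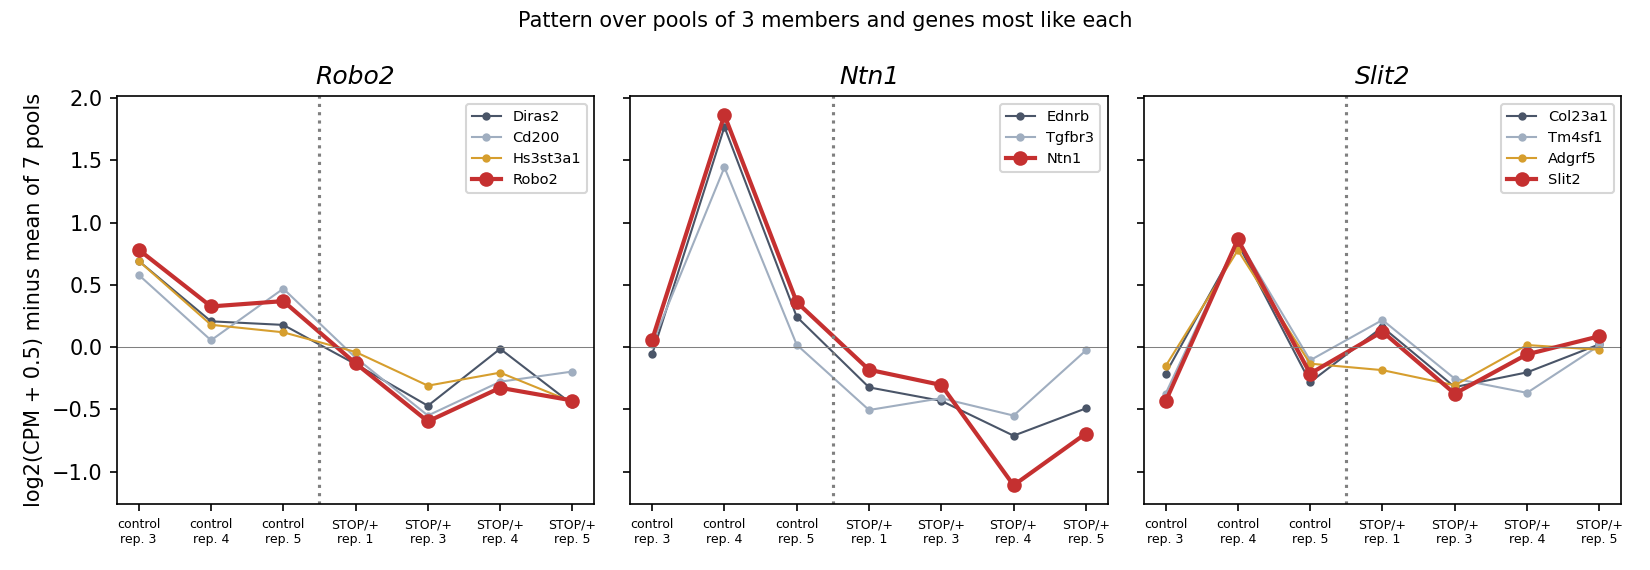
Log2(CPM+0.5) minus the mean of the 7 pools for *Robo2*, *Ntn1* and *Slit2* (red), with 3 genes most like *Robo2*, 3 most like *Slit2* and, for *Ntn1*, *Ednrb* and *Tgfbr3*. Lines join the values of 1 gene and imply no order among pools, and the dotted line parts control from *Gata6STOP/+* pools. *Ntn1* and *Slit2* with the genes drawn beside them peak in control replicate 4, and *Robo2* with its nearest genes is higher in the control pools.

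Levels can be compared between genes only per length, here as CPM per kb of merged exons. In control pools *Unc5b* was highest at 76.6±12.6 (s.d., *n*=3), followed by *Neo1* at 19.6±1.72 and *Slit3* at 13.0±0.492, and these did not overlap with their neighbours in the order. *Robo1* (8.17±0.557) and *Robo2* (7.09±1.30) overlapped in control pools. *Ntn4* (4.82±0.240), *Unc5c* (4.53±0.591), *Slit2* (3.87±2.02) and *Ntn1* (2.71±2.01) followed, each overlapping the next. In *Gata6STOP/+* pools *Robo2*, at 3.87±0.530 (s.d., *n*=4), came after *Ntn4* and *Unc5c*, and *Ntn1* was lowest at 0.893±0.266. The order in the middle depends on the transcript model. With the length of the longest transcript in place of merged exons, 5 of the 9 genes kept their place, and *Slit2* was at 9.89 and *Ntn4* at 4.94 CPM per kb in control pools.

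**Figure D5:**
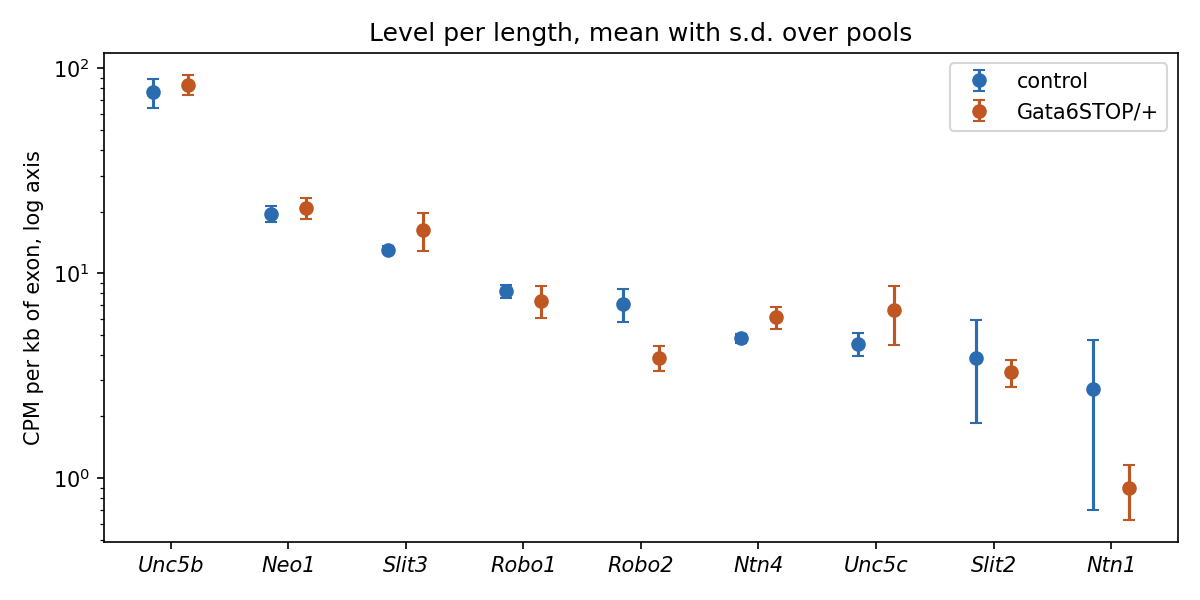
Mean CPM per kb of merged exons with s.d. over pools, on a log axis, in control (blue, *n*=3) and *Gata6STOP/+* pools (orange, *n*=4), ordered by the control mean. *Unc5b* is highest in both genotypes (76.6 and 83.4) and *Ntn1* lowest (2.71 and 0.893).

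The other genes of these pathways were taken from 3 lists, relatives of the members, other binding partners and co-receptors, and intracellular effectors. Of 77 listed genes, 0 were called by limma at an adjusted *P*-value under 0.05, and 3 were higher and 3 lower at an unadjusted *P*-value under 0.05. That unadjusted threshold was passed by 615 higher and 572 lower genes of all 14732. The median log2 fold change of the 77 genes was −0.0020, with 38 higher and 39 lower. The effectors, such as the *Srgap*, *Enah* and *Pak* genes that link Robo and DCC to actin, were the tightest, with all 48 between −0.24 and 0.22.

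*Gpc1*, which encodes glypican-1, a heparan sulfate proteoglycan that binds *Slit2*, had 230, 154 and 183 CPM in control replicates 3, 4 and 5. It was at 119, 104, 136 and 124 CPM in the *Gata6STOP/+* pools, all below every control pool. Its log2 fold change was −0.63 (limma adjusted *P*=0.186), and it was called by edgeR's likelihood ratio test and by DESeq2. *Robo4*, the Robo of endothelial cells, was lower in every *Gata6STOP/+* pool, at 4.80 to 5.91 CPM against 6.16 to 8.20 CPM, a log2 fold change of −0.36 (limma adjusted *P*=0.522). *Prtg* (protogenin), of the DCC family, was higher, at 28.7 to 36.4 CPM against 26.3 to 26.5 CPM, a log2 fold change of 0.33 (limma adjusted *P*=0.309). *Ntng2*, an anchored netrin with few reads that fell under the limit of 2 CPM for named genes, was at 1.99 to 2.59 CPM against 1.04 to 1.63 CPM. Among the effectors, *Adam10*, the protease that cleaves Robo receptors, was at 266 to 306 CPM against 235 to 259 CPM (log2 fold change 0.22, limma adjusted *P*=0.398). *Mapk3* was at 77.7 to 83.9 CPM against 84.4 to 87.0 CPM. These 6 genes were named because their groups did not overlap, and they are 6 of the 77, close to the 8.47% of all genes.

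Markers of other cells in the dissected tissue were summed for each pool. Of 12 neural crest and Schwann precursor markers, 10 were listed, with 7 lower and 3 higher in *Gata6STOP/+* pools and a median log2 fold change of −0.21. Their summed level was 165 to 210.0 CPM in control pools and 129 to 156 CPM in *Gata6STOP/+* pools, and so did not overlap. Without *Ednrb*, an omission made after its values were seen, it was 129 to 170 CPM and 112 to 138 CPM and overlapped. At an unadjusted limma *P*-value under 0.05, 3 of the 10 were lower and 0 higher. Of all 14732 genes, 572 were lower and 615 higher at that threshold. *Sox10*, 1 of the 10 and with only 42 to 111 reads in a pool, overlapped between the groups. It was at 5.32, 2.66 and 2.35 CPM in control and at 2.49, 2.54, 2.89 and 2.76 CPM in *Gata6STOP/+* pools. Of the 12 cushion mesenchyme markers 11 were lower, with a summed level of 3720 to 4561 CPM in control and 3251 to 4048 CPM in *Gata6STOP/+* pools. Of the 11 endothelial markers 10 were higher, at 854 to 1102 CPM in control and 930 to 1156 CPM in *Gata6STOP/+* pools. Neuronal markers were at 275 to 344 CPM and 304 to 328 CPM. Of the 7 erythroid markers 6 were higher, with the largest median log2 fold change of these lists, 0.40, and a summed level of 1770 to 4218 CPM in control and 2104 to 5449 CPM in *Gata6STOP/+* pools. Smooth muscle markers were higher for 6 of 7 genes, at 2607 to 3066 CPM and 2714 to 3566 CPM. Cardiomyocyte markers were lower for 8 of 11 genes, at 22715 to 25187 CPM and 18194 to 26190 CPM. Mesothelial markers (6 of 8 higher) were at 419 to 499 CPM and 372 to 540.2 CPM, and macrophage markers (5 of 8 lower) at 54.9 to 79.7 CPM and 44.9 to 107 CPM. In each list limma called 0 genes. The part of these cells in the *Robo2*, *Ntn1* and *Unc5c* values was not tested.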

How the data were processed

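Libraries of poly(A) RNA that keep strand were made from 7 OFT pools and read from 1 end over 60 bases. The authors removed adapters (Cutadapt 1.18), estimated gene expression with Ensembl models of GRCm38 (RSEM 1.2.3), and, in edgeR 3.32.1, kept genes with 1 CPM in 3 or more samples and applied TMM scaling. The deposited table holds CPM after that scaling, and its 14732 genes all pass the filter of 1 CPM in 3 pools. In every pool, 100% of the values were whole multiples of 1 step within 0.01 reads, the step being the smallest value in 4 pools and a whole fraction of it in 3, so reads were recovered.

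Genes were tested with limma 3.58.1 in R 4.3.3 (trended eBayes, no covariate, two-sided) on log2(CPM+0.5), a scale that understates changes of genes with few reads. Intervals are limma's 95% intervals for each gene. EdgeR 4.0.16 and DESeq2 1.42.0 on the recovered reads were alternatives, beside other constants (0.1 and 2), a mean of at least 5 CPM, median-of-ratios scaling, the replicate number as a block, and leaving out each pool. The fits were tested on simulated reads. Positions and lengths come from GENCODE M21 on GRCm38. The members and gene lists were chosen with earlier results of these data known. Genes named from the other lists had no overlap between groups and a mean of at least 2 CPM, at most 6 in each list, and the 3 most similar genes were found for members without overlap or with a pool over 2 times the next of its group. The omission of *Ednrb* and the overlap count without control replicate 4 were added after the values were seen. A similar gene of *Ntn1* and a marker are not reported here.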

Additional observations from a re-analysis of the deposited data

How the results depend on the processing

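The main count of 0 members called by limma was also 0 with constants of 0.1 or 2, with a mean of at least 5 CPM, with median-of-ratios scaling and with edgeR's quasi-likelihood test (5 members at an unadjusted *P*-value under 0.05). It was 2 with edgeR's likelihood ratio test (*Robo2* and *Ntn1*) and 1 with DESeq2 (*Robo2*). Over fits that each left out 1 pool it was 0 to 1, with *Robo2* called without control replicate 4. Whether the replicate number pairs the pools is not known, and no pool is known to share a litter with another. Same-numbered pools had correlations of deviations from the group means of −0.008, −0.118 and −0.002, and pools of unlike number −0.068 to 0.123. With group means of only 3 and 4 pools, these correlations cannot decide it. The fold change of *Gata6* cannot decide it either, since limma gave the same value with the block and without *Gata6STOP/+* replicate 1. As a block, which takes *Gata6STOP/+* replicate 1 out of the genotype difference, the number gave 1 member with limma (*Robo2*, log2 fold change −0.94, adjusted *P*=0.0388), 1 with edgeR's quasi-likelihood test (*Robo2*, adjusted *P*=0.0470) and 2 with its likelihood ratio test (*Robo2* and *Unc5c*, the latter at an adjusted *P*=0.0396). Of all genes, limma called 0 (1187 unadjusted) and 1 with a constant of 0.1. EdgeR's likelihood ratio test called 105, or 118 with the replicate block, its quasi-likelihood test 0, or 13 with the block, limma with the block 14, DESeq2 88, and fits without 1 pool 0 to 13. Of the other pathway genes, the likelihood ratio test called 1 (*Gpc1*), or 2 with the block (*Gpc1* and *Flrt3*), DESeq2 1 (*Gpc1*), and the other alternatives 0. For single members, direction was the same in all 17 alternatives except for *Slit2*, which ranged from −0.38 to 0.27 when single pools were left out and turned at the loss of control replicate 4. The count of genes without overlap, 1248, was within 1.5 times with median-of-ratios scaling or a mean of at least 5 CPM, and was 2811 (19.1%) without control replicate 4, where only 6 pools are compared. With the longest transcript as length, 5 of 9 members kept their place in the order of levels. With 88 to 914 reads in a pool, *Ntn1* was the member that depth limits most.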
